A study of Mus musculus with 8 samples.

Results

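ATAC-seq summits at the start sites of long noncoding RNAs (lncRNAs) were examined in brown adipose tissue (BAT). ATAC-seq is an assay in which a transposase inserts adapters into accessible DNA. A summit, the position of the strongest signal in a called region, was counted here when it lay within 1 kb of the transcription start site (TSS) of a RefSeq lncRNA and more than 1 kb from every mRNA TSS, on chromosomes 1 to 19 of mouse build mm10. Of 31729 summits on these chromosomes, 817 (2.57%, 95% Wilson interval 2.41 to 2.76) met this rule. They lay at 736 of 12323 lncRNA genes (5.97%, 5.57 to 6.40). For 796 summits a single lncRNA gene lay in reach, and for the other 21 more than 1. All intervals cover counting error only.

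The libraries came from WT mice and from Dot1L-BKO mice, in which floxed Dot1l, the gene of the H3K79 methyltransferase, was recombined by the Cre transgene B6.FVB-Tg(Ucp1-cre)1Evdr/J. Cre was driven by the Ucp1 promoter, so that Ucp1-expressing brown adipocytes were the cells targeted, whereas nuclei of whole BAT were assayed. Mice of both groups were 12 weeks old, chow-fed and kept at 4°C for 4 hr before BAT was taken. Each genotype had 2 ATAC-seq mice, processed separately. The deposited list holds 1 set of summits with 1 score each and no value per library, so the genotypes could not be compared, no replicate error could be given, and the values below are descriptions without tests. The score is −log10 of the q-value from the peak caller, so a higher score marks a call less likely under its background model. The list's own name sets the WT libraries against the Dot1L-BKO libraries, and no source used here says whether the latter were the background. If they were, a score, and the call of a summit itself, contrast the genotypes and do not measure how open a site is. Scores are therefore given below only as the strength of a call. Open chromatin in few nuclei and weaker opening in many cannot be told apart in whole tissue.

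LncRNAs are transcribed mostly by RNA polymerase II from promoters of their own and are often spliced and polyadenylated. Some act in the nucleus on chromatin or on nuclear bodies, some are precursors that carry snoRNAs or microRNAs in their introns or exons, and for others the act of transcription affects a neighbouring gene. Several lncRNAs are enriched in BAT and take part in brown adipocyte differentiation or thermogenesis. A summit at a start site does not show that the RNA is made. As a check of the tissue, brown fat genes had summits within 1 kb of their mRNA TSS. Ucp1, the uncoupling protein of brown adipocytes, scored 33.7, and Cidea, a lipid droplet protein, scored 61.5. The highest scores at Ppargc1a and Prdm16, a coactivator and a determinant of brown fat identity, were 20.8 and 8.65. The check is weak, since 47.3% of all mRNA genes had such a summit and the median score at mRNA TSSs was 8.12.

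The sequences around 7 of the summits show what kinds of start site had a summit. Each is 200 bases of the RefSeq reference (GRCm38.p6, the same chromosome sequences as mm10), read 5′ to 3′ on the strand of the lncRNA, and was chosen after scores were seen. Capitals mark a match, on either strand, to 1 of 16 short patterns searched; a match is a run of letters and not a shown binding site. Mir22hg is at chr11:75461296-75461495 on the + strand, Chaserr at chr7:73558524-73558723 on the − strand and Snhg8 at chr3:123508359-123508558 on the − strand. These 3 are start sites of well-described RNAs with high scores.
Mir22hg: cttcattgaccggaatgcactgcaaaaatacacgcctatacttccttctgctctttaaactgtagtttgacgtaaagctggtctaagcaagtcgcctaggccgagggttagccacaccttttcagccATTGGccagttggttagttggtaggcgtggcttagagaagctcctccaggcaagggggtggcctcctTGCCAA
Chaserr: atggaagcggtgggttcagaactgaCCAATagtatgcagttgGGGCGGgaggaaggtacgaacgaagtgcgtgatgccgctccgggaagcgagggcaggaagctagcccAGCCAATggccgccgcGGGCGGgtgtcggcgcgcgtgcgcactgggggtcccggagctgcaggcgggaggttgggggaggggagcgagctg
Snhg8: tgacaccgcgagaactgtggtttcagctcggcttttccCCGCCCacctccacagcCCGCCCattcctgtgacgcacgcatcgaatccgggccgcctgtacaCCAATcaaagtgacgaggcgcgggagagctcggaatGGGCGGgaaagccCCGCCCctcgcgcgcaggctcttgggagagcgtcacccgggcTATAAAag
In Chaserr and Snhg8 the capitals include the GC box GGGCGG, read by SP and KLF factors, or its reverse complement, and the CCAAT core, CCAAT, read by NF-Y. The CCAAT core is common everywhere, in 23.7% of the 817 windows, 24.5% of all windows, 27.0% at mRNA TSSs and 23.2% near no TSS. Mir22hg holds the CCAAT core and the NFI half-site TTGGCA, both on the reverse strand.

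A further 4 sequences show an imprinted antisense RNA, a brown fat RNA, a start site inside a coding gene and the highest-scoring summit. Kcnq1ot1 is at chr7:143296538-143296737 on the − strand, Lncbate1 at chr8:108584524-108584723 on the − strand, 1700028E10Rik at chr5:151368610-151368809 on the + strand and Gm40237 at chr4:118547886-118548085 on the + strand.
Kcnq1ot1: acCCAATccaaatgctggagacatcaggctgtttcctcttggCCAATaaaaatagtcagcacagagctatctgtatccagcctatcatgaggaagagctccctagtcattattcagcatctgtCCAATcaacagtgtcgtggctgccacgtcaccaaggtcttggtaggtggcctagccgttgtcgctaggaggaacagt
Lncbate1: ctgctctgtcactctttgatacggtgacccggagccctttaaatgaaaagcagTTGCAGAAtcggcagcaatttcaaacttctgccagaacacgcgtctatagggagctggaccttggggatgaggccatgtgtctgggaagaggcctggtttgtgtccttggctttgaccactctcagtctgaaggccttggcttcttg
1700028E10Rik: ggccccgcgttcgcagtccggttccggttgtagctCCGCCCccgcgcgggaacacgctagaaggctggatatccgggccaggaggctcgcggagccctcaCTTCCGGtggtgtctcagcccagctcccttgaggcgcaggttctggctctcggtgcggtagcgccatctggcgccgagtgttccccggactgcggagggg
Gm40237: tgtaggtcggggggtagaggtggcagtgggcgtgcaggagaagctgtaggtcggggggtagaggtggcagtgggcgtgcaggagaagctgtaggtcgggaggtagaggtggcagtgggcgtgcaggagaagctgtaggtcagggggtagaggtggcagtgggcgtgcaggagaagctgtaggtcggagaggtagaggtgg
The Kcnq1ot1 window holds the CCAAT core 3 times, which 11 of the 817 windows (1.35%) matched or exceeded, against 1.26% of all windows. The Lncbate1 window, centred 53 bp downstream of its TSS, holds a single match to the C/EBP pattern TTGCNNAA, named for factors of adipocyte differentiation. The window of 1700028E10Rik holds a GC box and the ETS pattern CCGGAAG on the reverse strand. The Gm40237 window matched none of the 16 patterns and is a run of near-copies of one 44-bp unit.

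Scores at lncRNA start sites were close to those of the list as a whole and below those at mRNA start sites. Their median score was 5.07, with quartiles of 3.32 and 9.76 and a range of 1.31 to 159. The median over all 31729 summits was 5.001. At mRNA TSSs the median was 8.12, and it was 4.16 for summits near no TSS of either kind. A score of at least 10 was held by 197 of the 817 summits (24.1%, 21.3 to 27.2), against a background of 23.6% over all summits. At mRNA TSSs the share was 40.8% and at neither kind of TSS 13.9%. The share at lncRNA start sites thus lay near the background.

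**Figure D1:**
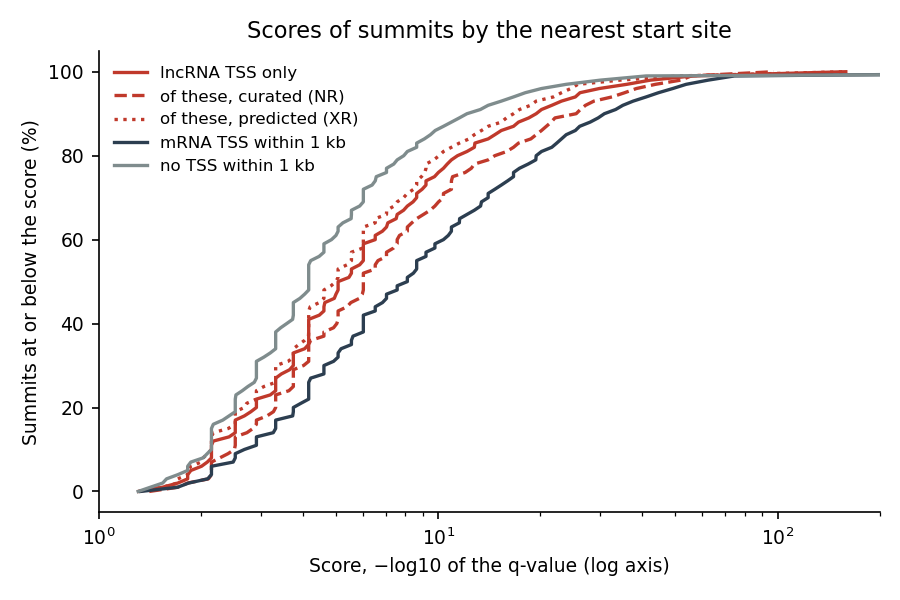
Cumulative share of summits (%) against the score, −log10 of the q-value on a log axis that ends at 200, for 817 summits at lncRNA TSSs alone, their 277 curated and 540 predicted subsets, 11175 summits at mRNA TSSs and 19737 near neither. Over most of the range, the highest scores aside, the lncRNA curve lies between those for mRNA TSSs and for no TSS, with the curated subset to the right of the predicted one.

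RefSeq holds curated lncRNA transcripts (NR) and predicted ones (XR), and their values are given apart. The 277 summits at curated transcripts had a median score of 6.02, against 5.001 for the 540 at predicted transcripts. A score of at least 10 was reached by 31.4% of the curated group (26.2 to 37.1) and 20.4% of the predicted group (17.2 to 24.0). Start sites of single-exon lncRNAs, 27 in all, had a median score of 12.2, whereas the 790 of spliced lncRNAs had 5.07. All 27 were curated, and the 250 spliced curated ones had a median of 6.02. Among lncRNA genes with every TSS more than 1 kb from an mRNA TSS, 10.5% of 2339 curated genes (9.30 to 11.8) had a summit, against 5.82% of 8004 predicted genes (5.33 to 6.36). For lncRNA genes with a TSS within 1 kb of an mRNA TSS the share was 51.1% of 1980 (48.9 to 53.3), near the 47.3% of 20558 mRNA genes (46.6 to 47.9). A summit within 1 kb of both kinds of TSS cannot be assigned to either transcript, and the 1192 such summits are not among the 817. Genes of this class can still hold some of the 817, where the summit itself lies more than 1 kb from every mRNA TSS. The 736 genes with such a summit outnumber the 711 that have a summit and every TSS away from mRNA TSSs.

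**Figure D2:**
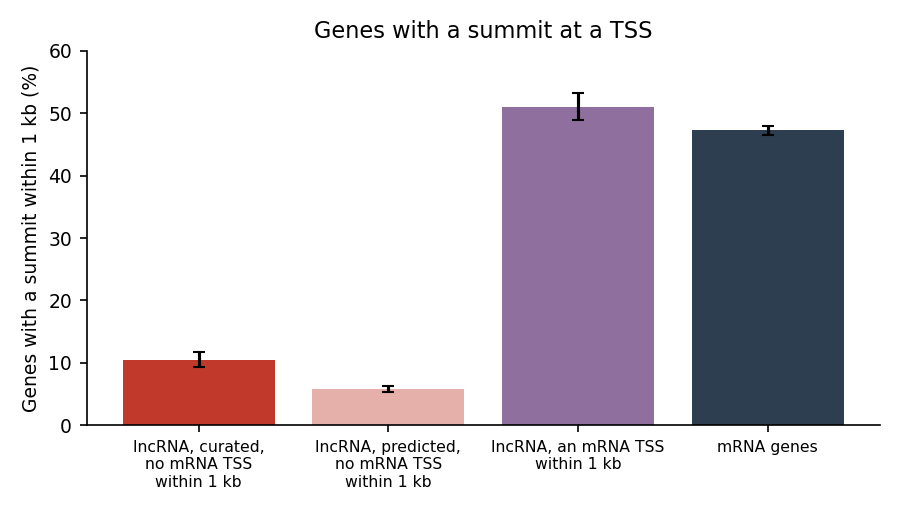
Share of genes (%) with a summit within 1 kb of a TSS, as bars with 95% Wilson intervals, for curated and predicted lncRNA genes away from mRNA TSSs, lncRNA genes with an mRNA TSS within 1 kb, and mRNA genes. The bars stand at 10.5%, 5.82%, 51.1% and 47.3%.

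A second annotation gave a partly different set of start sites. In GENCODE M21, a comparison added after the values were seen, an lncRNA TSS lay within 1 kb of 318 of the 817 summits (38.9%). The share was 76.9% of the summits at curated RefSeq transcripts and 19.4% of those at predicted ones. A GENCODE coding TSS lay within 1 kb of 42 (5.14%). The median score was 6.02 over the 318 summits with a GENCODE lncRNA TSS and 5.001 over the 499 without one.

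Summits gathered at the lncRNA TSS, but less tightly than at mRNA TSSs. The median distance was 341 bp, with quartiles of 137 and 653 bp. Within 100 bp lay 153 summits (18.7%, 16.2 to 21.5), made up of 69 curated and 84 predicted start sites. The corresponding share for summits at mRNA TSSs was 38.9% (38.0 to 39.8). Curated start sites had 24.9% within 100 bp and predicted ones 15.6%. The score moved with distance: its median was 7.05 up to 100 bp, 5.55 from there to 500 bp and 4.34 beyond 500 bp. Upstream of the TSS lay 380 summits (46.5%), downstream 435, and exactly on it 2. The upstream share was 51.3% among scores of at least 10 and 50.5% with curated transcripts alone, so neither side is favoured throughout. Of those within the transcript, 261 fell in an lncRNA exon and 173 in an intron.

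**Figure D3:**
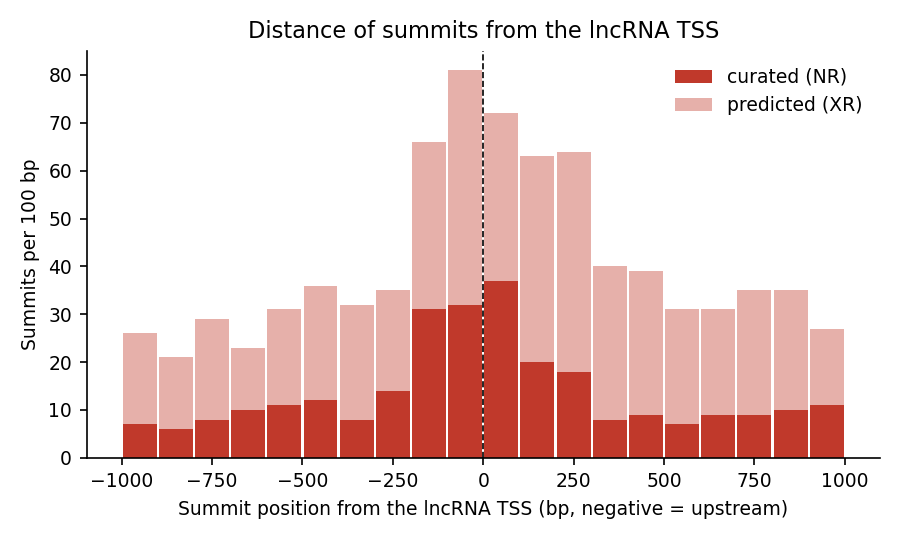
Number of summits per 100 bp against signed distance from the lncRNA TSS (bp, negative is upstream), with curated start sites in dark red and predicted ones stacked in light red. The bins on either side of the TSS are the tallest, at 81 upstream and 72 downstream, the latter with the 2 summits exactly on the TSS.

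Relative to coding genes, most of these start sites were remote. The nearest mRNA TSS was a median of 18563 bp away, with quartiles of 5570 and 46842 bp. It lay within 5 kb for 189 summits and beyond 50 kb for 195. Intergenic positions held 569 summits (69.6%), against 38.3% of summits near no TSS. The rule selects annotated lncRNA start sites, and the intergenic share of all such sites was not computed. Introns of mRNA genes held 206 (25.2%) and exons 42 (5.14%). Of these 248 inside coding genes, the lncRNA ran opposite to the host gene in 227 and along it in 21. That split was likewise not computed over all lncRNA TSSs inside coding genes, so it is not read as a trait of the summits. The median score was 5.55 in intergenic positions, 5.001 in introns and 4.63 in exons.

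The highest of the 817 scores, 159, belonged to the summit in an exon of Gm40237, a predicted lncRNA of unknown function, 580 bp downstream of its TSS. It ranked 22 among all summits. Shifted by 44 bp, its window matched itself at 91.0% of positions. Identity of at least 80% at some shift of 10 to 100 bp, a measure chosen after this window was seen, was found in 16 of the 817 windows (1.96%), in 4.28% of all windows and in 6.64% of windows near no TSS. The part that the repeat plays in the score was not tested. Of the 817 windows, 0 matched the mitochondrial genome.

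The next highest was Mir22hg, the host transcript of miR-22, with a score of 97.1 at 143 bp upstream of its TSS. It ranked 62 in the list, and the nearest mRNA TSS, of Wdr81, lay 6588 bp away. D130051D11Rik followed at 92.7, 123 bp downstream of its TSS and 52898 bp from the TSS of Wnt7b. The summit of Gm52238 scored 80.8 at 269 bp upstream of its TSS, in an intergenic position. 1700028E10Rik scored 76.7 at 35 bp downstream of its TSS, within an intron of Stard13. This was the only one of the 12 highest that lay inside a coding gene.

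Gm32287 scored 59.5 at 47 bp from its TSS. Its nearest mRNA TSS was that of Cebpb, a factor of adipocyte differentiation, at 88750 bp, and a further summit of the same lncRNA scored 39.3 at 864 bp downstream. 4833417C18Rik and Gm30966 shared a score of 58.6, at 188 bp downstream and 176 bp upstream of their TSSs. Equal scores recur in the list, so the order within a tie has no meaning. Gm32725 scored 56.6 at 981 bp from its TSS, close to the 1-kb limit. Chaserr, an RNA transcribed next to and acting on the chromatin remodeller gene Chd2, scored 54.7 at 229 bp upstream. The remaining pair of the 12 were 1700113A16Rik at 53.8, whose nearest mRNA TSS was that of the transcription factor gene Mef2d at 34640 bp, and C920006O11Rik at 52.8. A GENCODE lncRNA TSS lay within 1 kb of 7 of these 12 and not of Gm40237, D130051D11Rik, Gm52238, Gm30966 or Gm32725.

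SnoRNA host RNAs, whose introns release small RNAs that in many cases guide modification of ribosomal RNA, had the most listed genes with a summit. Of 22 listed, 13 had a summit at their own start site, 6 shared one with an mRNA TSS and 3 (Snhg4, Snhg14 and Rian) had none. Across all lncRNA genes 5.97% had a summit of the first kind, and 10.5% of curated ones away from mRNA TSSs had a summit. Snhg8 scored 34.7 at 123 bp upstream of its TSS, Dancr 21.6 at 21 bp downstream and Snhg16 20.9 at 207 bp upstream. Snhg15 scored 15.4 and Snhg5 12.8. Snhg3 had summits of 10.9 and 7.39, the higher one 995 bp upstream of the TSS and the other 96 bp downstream. Lower scores were those of Snhg6 (9.78), Epb41l4aos (6.02), Snhg20 (5.001), Snhg7 (4.61), Snhg17 (4.16), Snhg12 (2.49) and Snhg11 (2.09). The shared start regions were those of Snhg1, Snhg9, Snhg10, Snhg18, Gas5 and Zfas1.

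MicroRNA hosts gave 4 of 18 matched genes, to be read against the 5.97% of all lncRNA genes and the 10.5% of curated ones away from mRNA TSSs. Beside Mir22hg these were Dleu2 at 9.21, Mir100hg at 6.86 and Lncpint, a p53-induced RNA, at 6.02. No summit lay within 1 kb of the other 14, which include Pvt1, Mir17hg and Mir155hg. A missing summit says only that none passed the caller's cutoff there.

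Nuclear and chromatin RNAs gave 6 of 16, beside the same 5.97% and 10.5%. The lists overlap: the 6 include Lncpint, also counted as a microRNA host, and Kcnq1ot1, also counted as an imprinted RNA. Neat1, the scaffold of paraspeckles, had summits of 35.1 and 7.05 at 174 and 825 bp upstream of its TSS. Malat1, an abundant RNA of nuclear speckles, scored 19.4 at 662 bp upstream, and Oip5os1, also known as Cyrano, scored 19.4 at 296 bp downstream. Tug1 had a summit shared with an mRNA TSS. Hotair, Meg3, Airn, Miat, Rmst, Norad and Pvt1 were among the 9 with none.

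Imprinted RNAs gave 2 of 10, which with so few genes cannot be set apart from 5.97% or 10.5%. Kcnq1ot1, the paternally expressed antisense RNA that silences genes of its domain, scored 20.2 at 91 bp upstream of its TSS, within an intron of Kcnq1 on the opposite strand. Peg13 scored 2.01 at 92 bp downstream of its TSS. H19, Meg3, Rian, Mirg and Airn were among the 8 with no summit. The Hox cluster RNAs had no summit at a start site of their own among 10 matched, and Hotairm1 shared one with an mRNA TSS.

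**Figure D4:**
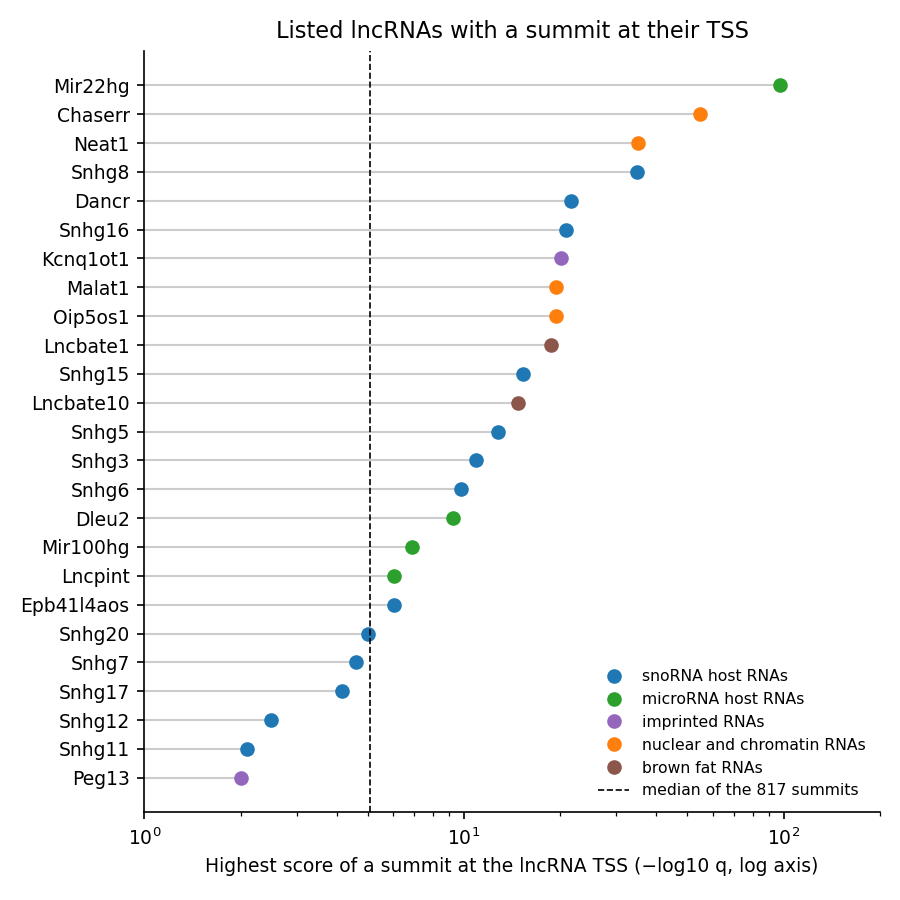
Highest score (−log10 q, log axis) of a summit at the TSS of each of the 25 listed lncRNAs that had one, coloured by list, with the median of the 817 summits as a dashed line. Mir22hg at 97.1 and Chaserr at 54.7 are highest, Peg13 at 2.01 lowest.

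Brown fat RNAs gave 2 of 3 matched, beside the same 5.97% and 10.5%, and the list is too short for a share. Lncbate1, a brown fat-enriched RNA needed for the brown adipocyte programme, scored 18.8 at 53 bp downstream of its TSS and had a second summit of 4.16 at 710 bp upstream. Lncbate10, another brown fat-enriched RNA, scored 14.8 at 26 bp upstream. H19 had none.

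Of 85 brown fat genes, 12 were the nearest coding gene, within 50 kb, of 16 of these summits. On chromosomes 1 to 19 this was so for 12 of 83 listed genes (14.5%, 8.47 to 23.6) and for 514 of 20558 mRNA genes (2.50%, 2.30 to 2.72); the list was chosen with results known and genes differ in the length of their surroundings. Ppara, a receptor that drives fatty acid oxidation genes, had 4: Lncppara, an RNA named for the locus, scored 10.4 at 747 bp upstream and 6.02 at 280 bp downstream of its TSS, and Gm34622 scored 5.55 and 2.05. These 4 lay 22441 to 31884 bp from the Ppara TSS. The highest of the 16 was at Gm42032, scoring 17.4 at 5460 bp from the TSS of Zfp423, a regulator of adipocyte commitment. Gm10570 scored 15.4 at 1813 bp from Fabp3, which encodes a fatty acid-binding protein.

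Several of the others lay inside or beside the coding gene on the opposite strand. Gm52354 scored 9.21 within an intron of Ppargc1b, a coactivator of mitochondrial genes, at 1109 bp from its TSS. 9530052E02Rik scored 5.07 exactly at its TSS, in an exon of Irs2, which encodes an adaptor of insulin signalling. Gm26588, in an intron of the lipase gene Mgll, had summits of 4.16 and 3.75. Low scores were found at Gm52871 in Cidec (2.92), Prdm16os upstream of Prdm16 (2.15) and B430212C06Rik in Cidea (1.41). The nearest coding gene is given by distance alone. Gm32718 near Adrb1 scored 5.07, Gm30889 near Zfp516 scored 3.75 and Gm35724 near Cebpa scored 2.69.

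Most lncRNA genes had a single summit. This was so for 645 of 736, while 84 had 2, 5 had 3, 1 had 4 and 1 had 6. Gm31718, a predicted lncRNA with several alternative start sites on chromosome 8, had 6, with scores from 2.15 to 30.1, all in intergenic positions between 36833 and 121128 bp from the TSS of Tomm20. Gm19911, opposite to Anxa6, had 4, with scores of 2.53 to 6.02. B330016D10Rik near Spen had 3 (5.46 to 25.4), Gm39054 near Wnt11 had 3 (1.89 to 15.4) and Gm31888 in Sh3tc1 had 3 (2.15 to 5.06). Gm32316 (2.03 to 4.56) and Gm46226 (3.32 to 4.15) tied with them at 3 and are named beyond the rule. By chromosome, they numbered from 19 on chromosomes 14 and 18 to 72 on chromosome 11, which also held the most summits of any kind (2661). As a share of a chromosome's summits they ranged from 1.89% on chromosome 3 to 3.22% on chromosome 6.

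In CpG content the start sites lay between the other classes and below the list as a whole. Median GC content of the 200-bp windows was 55%, against 62% at mRNA TSSs, 54.5% near no TSS and 56.5% over all windows. The interval of the median, 54.0 to 55.0, holds the value near no TSS, so GC content did not set the start sites apart from that class. The median ratio of observed to expected CpG was 0.315, with 0.727 at mRNA TSSs, 0.228 near no TSS and 0.342 over all windows. Windows with a ratio of at least 0.6 and GC of at least 50%, the values usual for CpG islands, made up 18.6% at lncRNA TSSs, 63.3% at mRNA TSSs, 8.94% near no TSS and 28.3% of all windows. Curated start sites had 32.1% and predicted ones 11.7%. Among the 69 curated start sites with a summit within 100 bp the share was 49.3%. Chaserr (0.988), Snhg8 (1.02) and Snhg15 (1.01) had high ratios, and Kcnq1ot1 (0.327) and Lncbate1 (0.372) low ones.

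Short sequence patterns did not all divide in this manner. The GC box was found in 16.5% of lncRNA start site windows, 42.5% of mRNA TSS windows, 8.09% near no TSS and 20.4% of all windows. The ETS pattern was found in 4.90%, 10.9%, 2.19% and 5.32% in the same order. The longer CCAAT box AGCCAAT, which contains the CCAAT core, was found in 4.04%, 6.96%, 2.26% and 3.96%. For these patterns of CpG-rich promoters the lncRNA start sites lay between the mRNA TSSs and the windows near no TSS. The ETS and CCAAT box shares at lncRNA start sites had intervals of 3.62 to 6.60 and 2.89 to 5.62, which hold the shares of all windows. The YY1 pattern was found in 0.857%, 1.49%, 2.29% and 1.97%, and the TATA box in 4.53%, 2.59%, 3.62% and 3.28%. The YY1 interval at lncRNA start sites, 0.416 to 1.76, holds the share at mRNA TSSs, and the TATA interval, 3.30 to 6.18, holds the share near no TSS.

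The AP-1, C/EBP and NFI patterns, named for factors that often bind enhancers, were found at a higher share of lncRNA than of mRNA start sites. The AP-1 pattern TGANTCA was found in 9.55% of lncRNA start site windows, 3.85% at mRNA TSSs, 7.75% near no TSS and 6.42% of all. The C/EBP pattern was found in 11.4%, 5.73%, 13.3% and 10.6%, and the NFI half-site in 14.0%, 7.59%, 12.8% and 11.0%. Their intervals at lncRNA start sites were 7.72 to 11.8 for AP-1, 9.38 to 13.7 for C/EBP and 11.7 to 16.5 for NFI. Each holds the share near no TSS, so these patterns did not set the start sites apart from that class. The pattern TCAAGGTCA of the oestrogen-related receptors, regulators of mitochondrial genes in BAT, was rare, at 0.979%, 0.295%, 0.522% and 0.454%. The EBF pattern CCCNNGGG, named for a factor of brown adipocyte identity, was found in 13.2%, 14.5%, 15.9% and 15.4%. The CCAAT core overlapped the NFI half-site in 17 of the 817 windows.

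**Figure D5:**
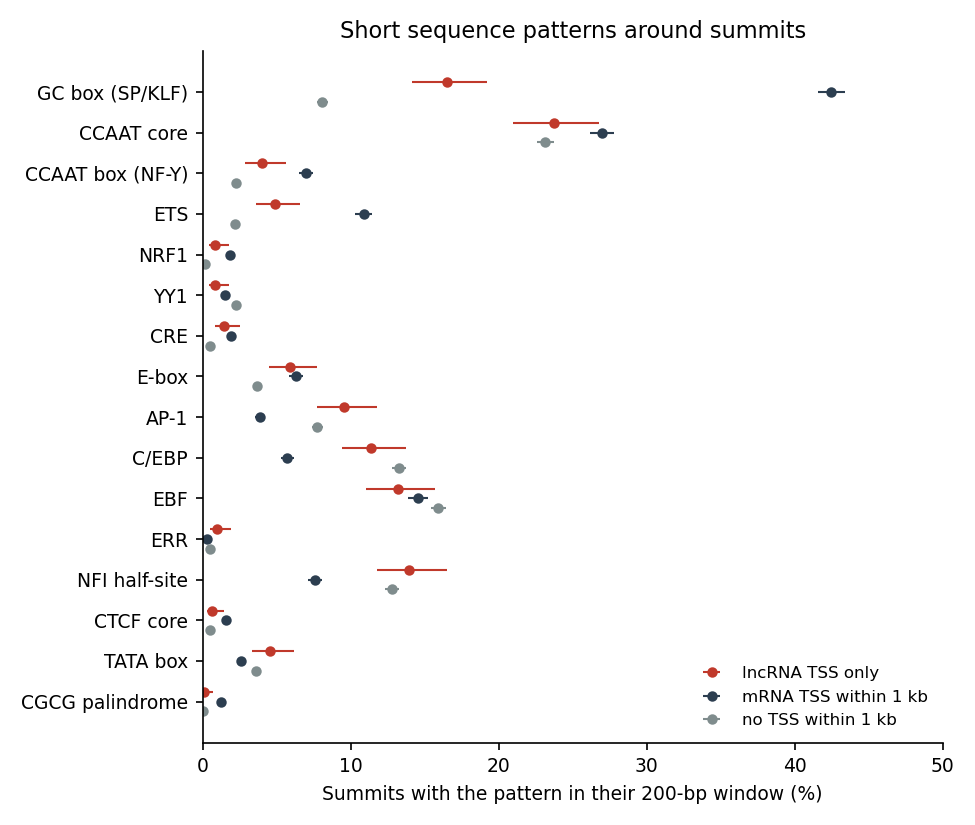
Share of summits (%) whose 200-bp window holds each of 16 short patterns on either strand, with 95% Wilson intervals, at lncRNA TSSs alone, at mRNA TSSs and near no TSS. For the GC box the points stand at 16.5%, 42.5% and 8.09%, and for AP-1 at 9.55%, 3.85% and 7.75%.

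The shares of several patterns were unlike at curated and predicted start sites. The GC box was in 23.1% of curated and 13.1% of predicted windows, ETS in 8.30% and 3.15%, and the CCAAT box in 7.22% and 2.41%. The rarer NRF1 pattern was at 0.722% and 0.926%, and the CGCG palindrome in 0 curated and 1 predicted window. C/EBP ran the other way, at 6.86% and 13.7%. AP-1 was at 7.22% (4.72 to 10.9) and 10.7% (8.40 to 13.6), with intervals that overlap. Interspersed or simple repeats covered the summit itself in 65 of the 817 (7.96%), against 3.50% at mRNA TSSs, 17.3% near no TSS and 12.2% of all summits.

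At the limits of the rule, the summits just inside 1 kb of an lncRNA TSS were those of Gm35338 (997 bp, score 23.1) and Gm39558 (996 bp, 4.56), and just outside were Gm32575 (1002 bp, 5.55) and Carmn (1002 bp, 11.5). For the mRNA limit, Gm46766 lay 1003 bp from the Cds2 TSS (1.87) and Gm10516 1007 bp from that of Rcor3 (6.02), whereas Gm29417 at 978 bp from Cxxc5 (3.75) and F930026P19Rik at 972 bp from Crip2 (5.55) were left out.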

How the data were processed

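ATAC-seq was analysed from BAT of 2 WT and 2 Dot1L-BKO mice. The authors worked in Partek Flow on build mm10 (aligner BWA). Their region caller was MACS2 2.1.1 with its ATAC setting; the stated limits were 2.0 for fold enrichment and 0.05 for q. Adapter trimming with cutadapt 1.2.1 and base calling with CASAVA and bcl2fastq 2.2 are named in the submitters' processing notes. The list's name sets WT against Dot1L-BKO libraries, but whether the latter were the background is not given in the sources used here. The deposited score of each summit is −log10 of a q-value. No counts are in the list, so depth is unknown, and how duplicates were handled and reads shifted or extended is not given in the sources used here.

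The list holds 32173 summits, of which 31729 on chromosomes 1 to 19 were used. TSSs came from the RefSeq annotation of GRCm38.p6 (release 108), as lncRNA and mRNA transcripts. Position, score, composition and patterns on both strands in 200-bp windows were computed with Python 3.11.15, pandas 2.3.3 and pysam 0.24.0, and mitochondrial matches with blastn 2.17.0. Assignment to start sites was tested on simulated summits. Shares have 95% Wilson intervals from scipy 1.17.1. No test was run, since no library has its own values.

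Named start sites were the 12 highest scores, the listed RNAs, those within 50 kb of a brown fat gene that is the nearest, the 5 lncRNA genes with most summits, and 2 on each side of each limit. Members and lists were chosen with earlier results of these data known. The CCAAT core, the repeat measure and the GENCODE comparison were chosen after values were seen. Alternatives changed the score cutoff, the windows, the transcripts, the merging of nearby summits, the chromosomes, masking and the window length. RNA-seq was not analysed here.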

Additional observations from a re-analysis of the deposited data

How the results depend on the processing

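With a score of at least 5, 440 summits at lncRNA start sites were left, with a median score of 9.21, 4.15% of lncRNA genes with a summit and 22.7% within 100 bp; at a score of at least 10 these were 197, 17.2, 1.90% and 24.9%, and median GC was 55.5%. A window of 500 bp around the lncRNA TSS gave 528, 6.02, 4.93% and 29.0%, and one of 2 kb gave 1404, 4.85, 9.73% and 10.9%. Curated transcripts alone gave 281, 6.02, 10.5% and 24.6%, with a median GC of 56%. Under the main rule 6.87% (6.40 to 7.38) of lncRNA genes had a summit, among the 10343 with every TSS more than 1 kb from an mRNA TSS. The 5.97% given above is over 12323 genes and is not the baseline here. Requiring mRNA TSSs more than 2 or 5 kb away lowered the 6.87% to 6.34% and 5.91%. In each of these settings fewer or more summits or genes qualify by construction. Using curated mRNAs only, merging nearby summits, adding chromosomes X and Y and leaving out masked summits left these 5 measures within their intervals or, for the count, within 1.5 times. Windows of 100 or 300 bp, which bear on sequence alone, left median GC within its interval. The GC box share followed window length, at 8.45% in 100 bp and 23.4% in 300 bp. No paired analysis was possible because no library has values of its own, and no replicate could be left out either. Summits at predicted transcripts, of which 19.4% lie within 1 kb of a GENCODE lncRNA TSS, make up most of the 817.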
